A study of Mus musculus with 12 samples.

Results

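The 2 liver arrays of mice injected with small interfering RNA (siRNA) were compared at day 2 with the 2 arrays of mice that drank diethylnitrosamine (DEN), 4 of the 12 arrays of the series. One side held the arrays labelled G0s2 siRNA and control siRNA (a scrambled sequence), and the other held the arrays labelled ATRA+DEN and DEN. The members were the genes for which both siRNA arrays lay above, or both below, both DEN arrays. The array covers 34734 genes, and the 20236 that 2 or more of the 4 arrays measured well above background were compared.

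The mice were male, wild-type ICR, an outbred stock, bought at 5 weeks of age and adapted for 1 week. siRNA (1.6 nmol) was injected into a vein with a lipid carrier on the day before DEN, per the labels' protocols. The drinking water held 80 mg/L of DEN (roughly 400 µg a day for a mouse) or 30 mg/L of all-trans retinoic acid, ATRA (roughly 150 µg a day), or both, and the vehicle group drank plain water. The labels of the siRNA arrays name the siRNA alone and leave unsaid if those mice drank DEN, and no label tells if 1 liver or several went onto an array. Each of the 12 groups is 1 array. Slide 1 held the ATRA+DEN, DEN, ATRA and vehicle arrays of day 2 and slide 2 held both siRNA arrays, so injection, carrier, siRNA and slide are on the same 2 arrays and cannot be told apart. If the siRNA mice did not drink DEN, the lack of DEN is on the same 2 arrays too. Both slides carry the same scan day in the file headers.

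Cells sense double-stranded RNA from outside through receptors in endosomes and in the cytoplasm, and these receptors can switch on interferon and, through it, a large group of antiviral genes. Kupffer cells, the macrophages that line the liver sinusoids, take up particles from the blood, lipid particles among them. Hepatocytes turn DEN into a DNA-alkylating agent, and damaged DNA stabilises p53, which switches on cell cycle arrest and death genes. ATRA, the active form of vitamin A, binds retinoic acid receptors and induces its own breakdown by Cyp26a1.

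Levels are given on a log2 scale on which 0 is the 75th percentile of an array. The gap of a gene is the distance between the nearest arrays of the 2 sides, and a gene is called set apart where the gap is at least 1 log2 unit, that is 2-fold. Of the 20236 genes, 297 (1.47%) were set apart higher on the siRNA arrays and 111 (0.549%) were set apart lower. With a gap of any size, 5862 genes (29%) lay higher and 4026 (19.9%) lower. Of those set apart, 70 of the higher and 62 of the lower have only a predicted or clone name, and 72 and 44 were well above background on neither array of the dimmer side. Genes well above background on all 4 arrays, 18261 in number, gave 191 set apart higher and 58 lower. With normexp background correction, 88 genes were set apart higher and 16 lower. No gene (0%) passed limma at a Benjamini-Hochberg adjusted p of 0.05, where 1 array per group leaves 2 residual degrees of freedom. The lowest adjusted p was 0.0536, 2903 genes had an unadjusted p under 0.05 against 1012 expected by chance, and 1575 of these were higher (7.78% of all genes) and 1328 lower (6.56%). None of the 10 spike-in RNAs of the platform lay outside, and the means of the 2 sides differed by -0.15 to 0.16. The 2 siRNA arrays differed more from each other, the control siRNA array being the lower for each spike-in. The spike-in E1A_r60_n11, for example, was at 6.10 and 5.54 on the G0s2 and control siRNA arrays, against 5.98 and 5.96 on the ATRA+DEN and DEN arrays. All 24 hepatocyte markers listed, albumin among them, were well above background on all 4 arrays.

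Of the genes well above background on all 4 arrays, that with the largest gap upwards encodes an MHC class II chain. H2-Eb1 (probe at chr17:34453075-34453134, build mm9), a beta chain of the MHC class II molecules that present antigen, was at 4.19 and 3.81 on the G0s2 and control siRNA arrays, against -1.45 and -1.18 on the ATRA+DEN and DEN arrays. Its level on the other arrays of slide 1 was 1.56 and -2.22 on the ATRA and vehicle arrays, so both siRNA arrays lay above all 4 arrays of that slide. The difference of the means was 5.32 (SE 0.21), or 39.9-fold, with a limma adjusted p of 0.0536. It passed, with an adjusted p of 0.00555, after normexp background correction. Over all 12 arrays of the series, the H2-Eb1 level spanned -2.22 (vehicle, day 2) to 4.19 (G0s2 siRNA, day 2), and at day 7 the arrays titled ATRA+DEN and ATRA were at 3.44 and 2.83. Other genes of the same pathway, looked up after this value was seen, showed smaller gaps. H2-Ab1, another beta chain, was at 5.00 and 4.62 on the G0s2 and control siRNA arrays, against 3.28 and 3.23 on the ATRA+DEN and DEN arrays. H2-Aa, an alpha chain, had a gap of 0.70, H2-DMa, which loads the peptide, 1.11, Ciita, the transcriptional activator of the class II genes, 0.55, and Cd74, the invariant chain, 1.50.

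Saa3 (probe at chr7:53970389-53970448), a serum amyloid A made by inflamed tissue, was at 8.07 and 5.27 on the G0s2 and control siRNA arrays, against 1.72 and 1.48 on the ATRA+DEN and DEN arrays. The 2 siRNA arrays differed from each other by 2.80 (G0s2 siRNA minus control siRNA), and both lay above the highest array of slide 1. Cxcl9 (probe at chr5:92752191-92752250), a chemokine induced by interferon gamma that draws T cells, was at 4.51 and 3.81 on the G0s2 and control siRNA arrays, against 0.52 and 0.57 on the ATRA+DEN and DEN arrays, a difference of 3.61 (SE 0.28) or 12.2-fold. Both of its probes were set the same way. Alas1 (probe at chr9:106136284-106136343), the first enzyme of haem synthesis, was at 8.13 and 8.32 on the G0s2 and control siRNA arrays, against 4.82 and 5.30 on the ATRA+DEN and DEN arrays. Alas1 was also high on the slide of the DEN arrays, at 7.84 and 6.37 on the ATRA and vehicle arrays, so that the DEN arrays were low and the siRNA arrays stood only 0.29 above the highest array of that slide.

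Slpi, a secreted protease inhibitor of inflamed tissue, was at 2.97 and 2.40 on the siRNA arrays and -0.39 and -0.28 on the DEN arrays. Il18bp, the soluble decoy that binds the cytokine IL-18, was at 3.17 and 3.52 on the siRNA arrays and 0.30 and 0.54 on the DEN arrays. Siglec1, a sialic acid receptor of macrophages that interferon induces, was at 0.77 and 1.04 on the siRNA arrays and -1.50 and -1.58 on the DEN arrays. In each of these 3 the siRNA arrays differed from each other by less than the gap to the DEN arrays. Gzma, a protease of cytotoxic lymphocytes, had a gap of 2.44, Icos, a costimulatory receptor of T cells, 2.09, Gbp2b, an interferon-induced GTPase, 2.16, and Cd5l, a protein secreted by Kupffer cells, 2.05. Mfsd2a, a transporter of lysophospholipids, was at 2.05 and 3.66 on the G0s2 and control siRNA arrays, against -1.71 and -0.43 on the ATRA+DEN and DEN arrays, with 2.72 and 1.90 on the ATRA and vehicle arrays. For Mfsd2a the DEN arrays were the low ones of slide 1 and the siRNA arrays overlapped the arrays without DEN. Usp2, a deubiquitinase under clock control, was also low on the DEN arrays, at 2.76 and 2.44 on the siRNA arrays and 0.41 and 0.32 on the DEN arrays and 2.06 and 2.21 on the ATRA and vehicle arrays. Gfra2, a receptor subunit for neurturin, had a gap of 2.06 and Smim24, a small membrane protein, 1.95.

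Of the 15 genes with the largest gaps upwards among those well above background on all 4 arrays, 14 lay above all 4 arrays of slide 1 and 12 were set apart from all 4, Alas1, Mfsd2a and Usp2 being the exceptions. Their folds ran between 4.16 and 39.9, and their limma adjusted p between 0.0536 and 0.181. Around the limit of 1, G6pdx, the first enzyme of the pentose phosphate pathway, was just inside with a gap of 1.01 and Gbp3, an interferon-induced GTPase, just outside with 0.99. Downwards, Tmem268, a membrane protein, was just inside with -1.02. After normexp correction 14 genes passed limma, of which 5 have only a predicted or clone name. The named ones were H2-Eb1, Alas1, Cxcl9, Cd5l, Usp2, Slpi, Il18bp and Per1, all higher, and Gdpd3, lower.

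**Figure D1:**
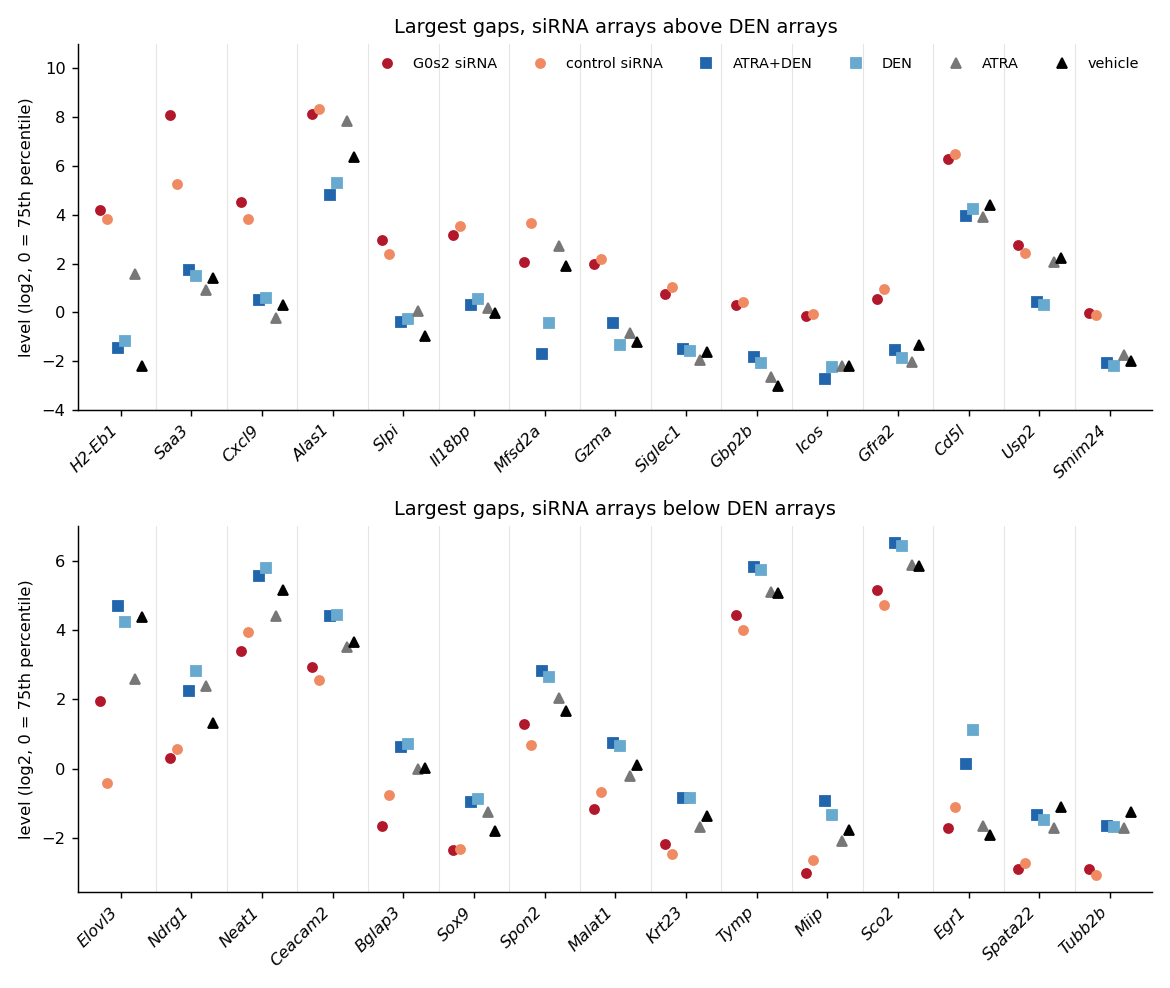
Level of the 15 genes with the largest gaps upwards (top) and downwards (bottom) on the 6 arrays of day 2, in log2 with 0 at the array's 75th percentile. Each point is 1 array, circles are the siRNA arrays of slide 2, squares the ATRA+DEN and DEN arrays and triangles the ATRA and vehicle arrays of slide 1. In the upper panel the circles lie above all other points except for Mfsd2a, and in the other panel they are the lowest points except for Egr1.

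Interferon-induced genes were higher as a list, with a few members far apart. Of 41 members compared, 22 lay higher and 2 lower, and 5 were set apart higher and none lower, against 29%, 19.9%, 1.47% and 0.549% of all genes. The median difference was 0.48, against 0.05 over all genes. Relative to vehicle, the median member stood at 0.94 and 1.56 on the G0s2 and control siRNA arrays, against 0.54 and 0.71 on the ATRA+DEN and DEN arrays and 0.20 on the ATRA array, so the DEN arrays were themselves above vehicle. Irf7, the transcription factor that amplifies the interferon response, was at 0.74 and 2.21 on the G0s2 and control siRNA arrays, against -1.13 and -1.18 on the ATRA+DEN and DEN arrays, a difference of 2.62 (SE 0.51). Ifi27l2a, a small mitochondrial protein induced by interferon, was at 4.77 and 5.65 on the G0s2 and control siRNA arrays, against 2.91 and 2.04 on the ATRA+DEN and DEN arrays. The control siRNA array was the higher of the siRNA pair in both.

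Oas1a, an antiviral enzyme that double-stranded RNA activates, was at 2.47 and 3.52 on the G0s2 and control siRNA arrays, against 1.06 and 1.20 on the ATRA+DEN and DEN arrays. Bst2, which tethers budding virus, was at 7.25 and 7.17 on the siRNA arrays and 5.85 and 6.00 on the DEN arrays, and Psmb8, a subunit of the immunoproteasome, was at 4.14 and 4.20 on the siRNA arrays and 3.05 and 2.59 on the DEN arrays. The 5 members set apart from the DEN arrays, namely Ifi27l2a, Irf7, Oas1a, Bst2 and Psmb8, were also set apart from all 4 arrays of slide 1. Members of the same list that overlapped between the sides included Isg15, Rsad2 and Ifit1, with differences of 0.24, 0.22 and 0.23. Mx1 and Usp18 had differences of 1.03 and 1.08, yet overlapped, being high on the control siRNA array alone, with -3.05 and -1.61 on the G0s2 and control siRNA arrays, against -2.96 and -3.76 on the ATRA+DEN and DEN arrays for Mx1. Irf1 and Mx2 lay lower, with gaps of -0.03 and -0.31. None of the 5 set apart had an adjusted p under 0.05, the values running between 0.141 and 0.193.

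The upstream sequences of Oas1a and Bst2, and of Gbp2b from the 15 largest gaps, are shown because they carry the element through which interferon-activated factors bind DNA. The core of the interferon-stimulated response element (ISRE) was searched as GAAA, any 2 bases and GAAA again, on both strands in the 250 bases before each RefSeq start (build GRCm38.p6), along with the gamma-activated site (GAS, TTCNNNGAA) and the E-box CACGTG. Capitals mark the matches. Oas1a (chr5:120907526-120907775, minus strand) has 2 overlapping ISRE matches beginning 20 and 14 bases before the start and a GAS match at 98. Bst2 (chr8:71537473-71537722, minus strand) has 2 overlapping ISRE matches at 130 and 124, and a GAS match at 136 that overlaps them. Gbp2b (chr3:142594597-142594846, plus strand) has 1 ISRE match at 137, read on the other strand. Irf7 and Psmb8 have no ISRE match in these windows. Other named genes, not shown, also have ISRE matches. Saa3 and Gzma, from the 15 largest gaps upwards, have 1 each, at 125 and 97. Slc22a26 has 2, at 237 and 231, and Inhbb, which was lower on the siRNA arrays, has 1 at 198.
Oas1a: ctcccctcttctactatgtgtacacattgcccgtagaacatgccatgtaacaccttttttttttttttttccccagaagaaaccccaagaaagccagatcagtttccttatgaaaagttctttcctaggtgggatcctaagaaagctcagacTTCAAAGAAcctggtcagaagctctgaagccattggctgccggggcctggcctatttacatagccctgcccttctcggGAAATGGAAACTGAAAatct
Bst2: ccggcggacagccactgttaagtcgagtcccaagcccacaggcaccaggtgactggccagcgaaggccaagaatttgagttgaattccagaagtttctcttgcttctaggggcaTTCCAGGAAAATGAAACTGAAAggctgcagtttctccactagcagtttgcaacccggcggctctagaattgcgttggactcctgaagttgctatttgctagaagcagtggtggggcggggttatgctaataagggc
Gbp2b: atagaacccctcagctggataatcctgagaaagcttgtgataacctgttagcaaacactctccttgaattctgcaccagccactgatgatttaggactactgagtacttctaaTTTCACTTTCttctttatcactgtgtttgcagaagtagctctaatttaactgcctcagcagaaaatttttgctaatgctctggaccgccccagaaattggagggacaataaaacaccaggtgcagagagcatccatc
The ISRE core was found in 2.98% of all 32851 promoter windows and 2.8% of those of the genes compared, in 36.8% of the 38 windows of the interferon-induced list and in 7.55% of the 212 windows of the genes set apart higher. In the 58 windows of the genes set apart lower it was found in 6.9%, from 4 windows. These matches are a description of the letters in the windows.

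By count of members, cytokines, chemokines and acute phase proteins also leaned upwards. Of 20 cytokines and chemokines compared, 12 lay higher, 1 lower and 4 were set apart higher, against 29%, 19.9% and 1.47% of all genes. The median difference of the list was 0.46. Added up on the linear scale, its log2 level was 10.23 and 10.13 on the G0s2 and control siRNA arrays. The sum was higher on the ATRA+DEN and DEN arrays, at 10.53 and 10.35. Besides Cxcl9, the members set apart were Ccl5, Vcam1 and Cxcl13. Ccl5, a chemokine for T cells, was at 2.14 and 1.50 on the G0s2 and control siRNA arrays, against 0.10 and -0.48 on the ATRA+DEN and DEN arrays. Vcam1, an adhesion molecule of activated endothelium, was at 1.91 and 1.67 on the siRNA arrays and 0.61 and 0.44 on the DEN arrays. Cxcl13, a chemokine for B cells, was well above background on neither DEN array and was at least 7.04-fold higher on the siRNA arrays. For such genes the fold is a bound, taken against the higher of the dim probe's own level and the lowest level well above background on each dim array. Where the probe's own level is the higher, that level enters as measured, so the bound is approximate.

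Of 28 acute phase proteins, 16 lay higher, 1 lower and 5 were set apart higher, against 29%, 19.9% and 1.47% of all genes. The median difference of the list was 0.37. Saa1 and Saa2, the serum amyloid A proteins that the liver secretes, had differences of 2.49 (SE 0.53) and 2.51 (SE 0.54). These are close copies of each other, so their probes may share RNA. Saa1 was at 9.55 and 8.12 on the G0s2 and control siRNA arrays, against 6.58 and 6.09 on the ATRA+DEN and DEN arrays, with 5.90 and 7.17 on the ATRA and vehicle arrays. Lcn2, which binds iron-carrying siderophores, was at 5.37 and 3.96 on the siRNA arrays and 2.75 and 1.76 on the DEN arrays. Orm3, a member of the orosomucoid family of plasma proteins, was at 1.83 and 2.04 on the G0s2 and control siRNA arrays, against 0.57 and -1.53 on the ATRA+DEN and DEN arrays. For Saa1, Saa2, Saa3 and Lcn2 the G0s2 siRNA array was the higher of the siRNA pair, whereas for Orm3 it was the lower.

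Markers of Kupffer cells and macrophages had the highest median of the 34 lists, 1.13. Of 18 markers compared, 15 lay higher and 1 lower, against 29% and 19.9% of all genes. The same 15 and 1 lay outside all 4 arrays of slide 1, where 18.4% of all genes lay higher and 12.1% lower. Adgre1, the F4/80 antigen, was at 1.91 and 3.07 on the G0s2 and control siRNA arrays, against 0.23 and 0.19 on the ATRA+DEN and DEN arrays. Timd4, a receptor of resident Kupffer cells for dying cells, was at 0.63 and 0.92 on the siRNA arrays and -0.89 and -0.82 on the DEN arrays. Marco, a scavenger receptor, was at 3.82 and 6.05 on the G0s2 and control siRNA arrays, against 2.57 and 1.14 on the ATRA+DEN and DEN arrays, the control siRNA array being far above its partner. Cd68, a lysosomal protein of macrophages, had a gap of 1.10, C1qb, a complement subunit made by macrophages, 1.00, and Cd5l 2.05. These 6 were the members set apart, all higher, where 1.47% of all genes were set apart higher. Clec4f, a lectin that marks Kupffer cells in the mouse, had a gap of 0.84, Cd163, the haemoglobin scavenger receptor, 0.99, and Csf1r, the macrophage growth factor receptor, 0.66. The member that lay lower was Itgam (CD11b), a marker of monocytes and neutrophils, with a gap of -0.55. Added up on the linear scale, the markers had a log2 level of 8.17 and 8.69 on the G0s2 and control siRNA arrays, against 7.63 and 7.32 on the ATRA+DEN and DEN arrays and 7.41 and 7.50 on the ATRA and vehicle arrays. Each of the 20 markers on the array was measured well above background by 1 or more of the 4 arrays. More cells of a type and more RNA per cell cannot be told apart in these bulk samples, and the part of Kupffer cells in the interferon-induced and inflammatory results was not tested.

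Among markers of T, B and NK cells, 9 of 13 lay higher and none lower, against 29% and 19.9% of all genes. Of these markers 4 were set apart higher, where 1.47% of all genes were. The median difference was 0.40, and 0.24 over the 8 markers well above background on all 4 arrays. Gzma was at 2.00 and 2.17 on the G0s2 and control siRNA arrays, against -0.45 and -1.33 on the ATRA+DEN and DEN arrays. Gzmb, a protease of the same granules, was at least 5.06-fold higher, being well above background on neither DEN array. Cd3g and Cd3d, chains of the T cell receptor complex, had gaps of 1.55 and 1.32, whereas Cd3e, the third chain, had 0.16, and Cd4, Cd8a and Prf1 (perforin) overlapped. Cd8b1, Igkc, Klrb1c and Ncr1 were well above background on none of the 4 arrays. The summed level of the list was 6.56 and 6.15 on the G0s2 and control siRNA arrays, against 6.10 and 6.09 on the ATRA+DEN and DEN arrays and 6.04 and 6.38 on the ATRA and vehicle arrays. Of 14 neutrophil markers 7 were compared and 4 were well above background on none of the arrays (Ngp, Cxcr2, Mmp8 and Mmp9). Of the 7, 4 lay higher and 1 lower, against 29% and 19.9% of all genes, and their median difference was 1.00. The summed level of the 7 was 7.59 and 7.35 on the G0s2 and control siRNA arrays. It was 7.79 and 7.53 on the ATRA+DEN and DEN arrays, so the sums overlapped between the sides. On the ATRA and vehicle arrays it was 7.56 and 7.54. The neutrophil marker set apart was Lcn2, which hepatocytes also make.

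Among sinusoidal endothelial markers 8 of 19 lay higher and 1 lower, against 29% and 19.9% of all genes, and none was set apart. The largest differences were those of Ly6a and Ly6c1, surface antigens that interferon induces, with 7.46 and 4.23 on the G0s2 and control siRNA arrays, against 3.65 and 0.43 on the ATRA+DEN and DEN arrays for Ly6a. Among hepatocyte markers 8 of 24 lay higher, near the 29% of all genes, and none lower, none was set apart and the median difference was 0.13. Of 21 lipid droplet and lipolysis genes, 13 lay higher and none lower, against 29% and 19.9% of all genes, with a median of 0.34. Of the 21, 7 lay above all 4 arrays of slide 1, where 18.4% of all genes did. Relative to vehicle, their median was -0.02 and 0.30 on the G0s2 and control siRNA arrays, against -0.36 and -0.19 on the ATRA+DEN and DEN arrays.

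**Figure D2:**
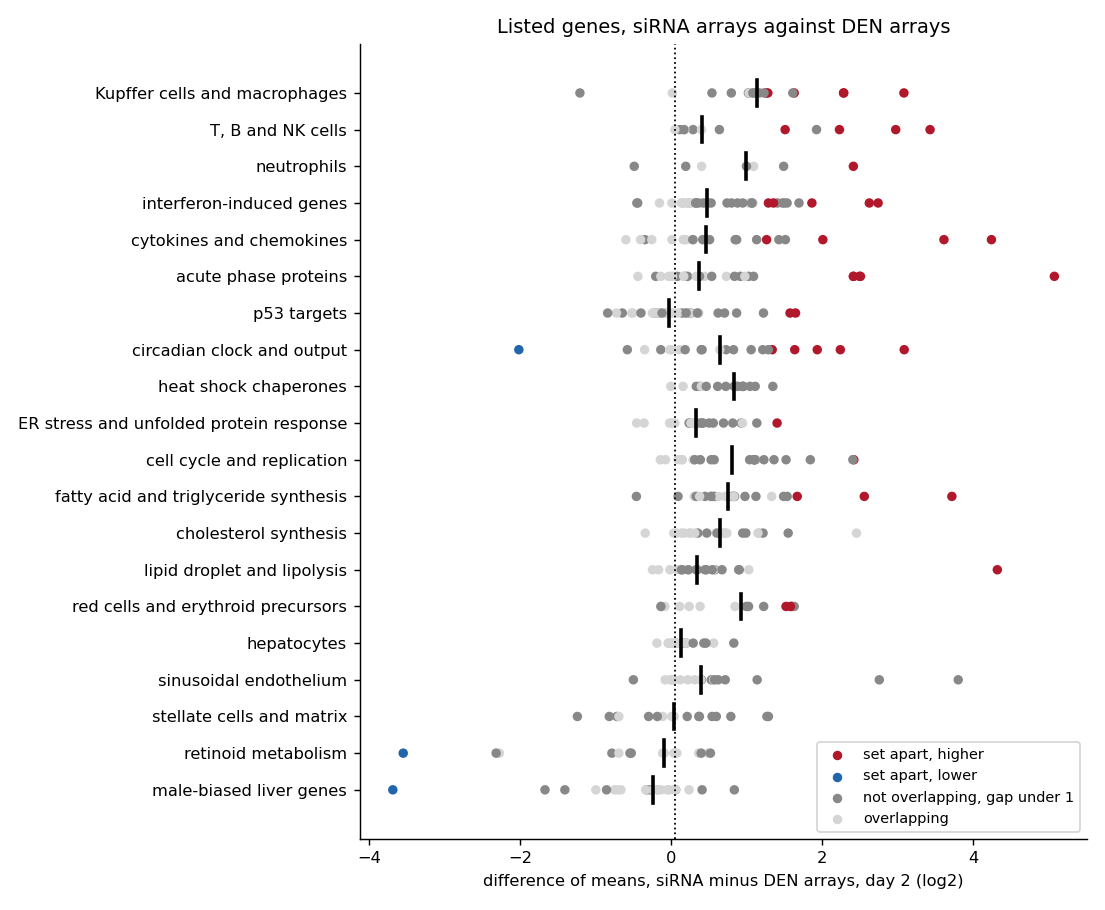
Difference of the means, siRNA minus DEN arrays of day 2 (log2), for the members of 20 lists. Each point is a gene, the bar is the median of the list and the dotted line the median of all genes, 0.05. Red points were set apart higher and blue points lower, and the bars of Kupffer cell markers (1.13) and heat shock chaperones (0.83) lie far to the right of the dotted line, that of p53 targets (-0.03) does not.

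Of 37 p53 targets compared, 20 overlapped between the siRNA arrays and the DEN arrays, near the 51.1% of all genes. Of the rest, 11 lay higher and 6 lower, where 29% and 19.9% of all genes did. Of the 37, 2 were set apart higher, where 1.47% of all genes were, and the median difference was -0.03. Relative to vehicle, the median p53 target stood at 0.81 and 0.99 on the G0s2 and control siRNA arrays, against 0.83 and 0.84 on the ATRA+DEN and DEN arrays and 0.03 on the ATRA array. Cdkn1a, the p21 inhibitor of the cell cycle, was at 3.37 and 4.00 on the G0s2 and control siRNA arrays, against 3.39 and 4.02 on the ATRA+DEN and DEN arrays, with 2.13 and 1.12 on the ATRA and vehicle arrays. Mdm2, the ubiquitin ligase that degrades p53, was at 3.94 and 4.31 on the G0s2 and control siRNA arrays, against 4.81 and 4.74 on the ATRA+DEN and DEN arrays, with 3.45 and 3.51 on the ATRA and vehicle arrays. So for Cdkn1a and Mdm2 the siRNA arrays lay above both arrays without DEN, as the DEN arrays did. The 2 members set apart higher were Pmaip1 (Noxa), a promoter of cell death, at -1.89 and -1.79 on the siRNA arrays and -3.48 and -3.49 on the DEN arrays and well above background on 1 of the DEN arrays, and Plk3, a stress-activated kinase, at 3.59 and 3.42 on the siRNA arrays and 2.34 and 1.53 on the DEN arrays.

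**Figure D3:**
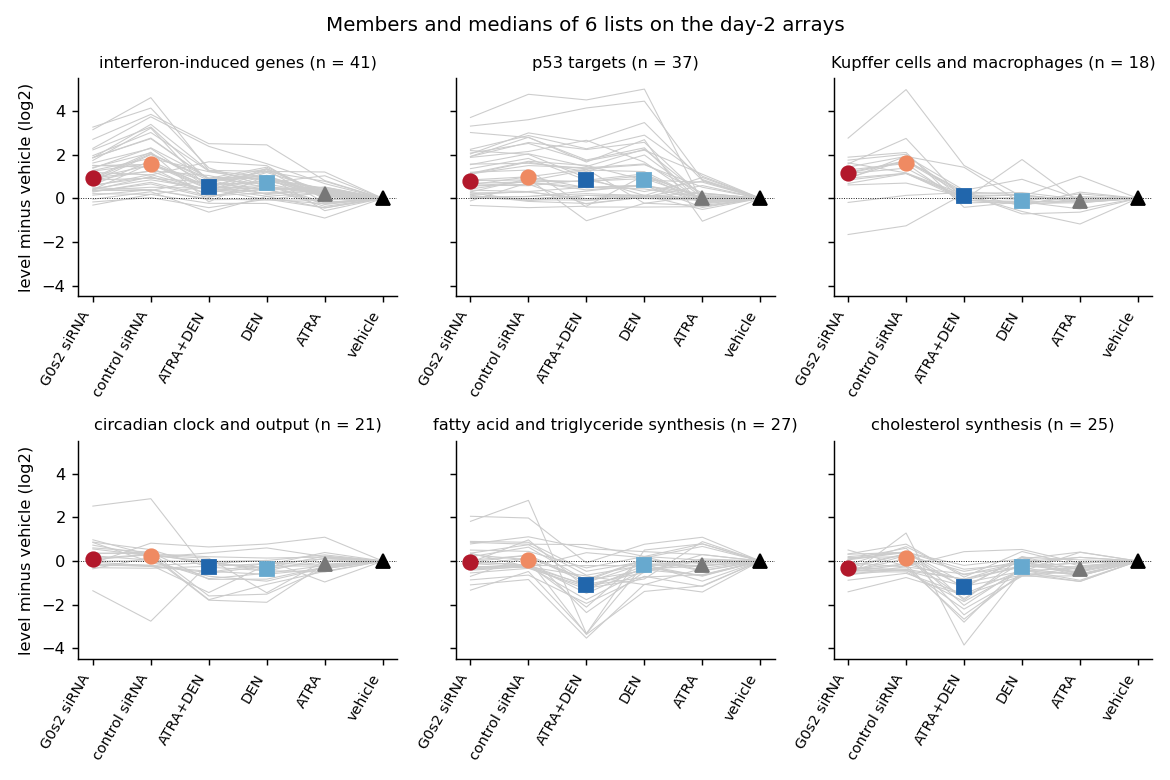
Level minus that of the vehicle array (log2) for 6 lists on the 6 arrays of day 2. Grey lines are genes and the symbols are the medians of the list. The medians of p53 targets lie between 0.81 and 0.99 on the siRNA and DEN arrays, those of Kupffer cell markers stand out on the siRNA arrays (1.14 and 1.64), and those of cholesterol synthesis are low on the ATRA+DEN array (-1.20).

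Of the clock genes, 13 of 21 lay higher on the siRNA arrays, against 29% of all genes. In the liver clock, Clock or Npas2 pairs with Arntl to switch on the Per and Cry genes, whose products then block that pair, and outputs such as Dbp and Usp2 follow. Of the list 3 lay lower (19.9% of all genes did), and 5 were set apart higher and 1 lower (1.47% and 0.549% of all genes were). After normexp correction Ciart, Per2, Per3 and Npas2 were no longer set apart. The median difference was 0.64. Ciart, a repressor of the Clock and Arntl pair, was at -2.83 and -2.49 on the G0s2 and control siRNA arrays, against -5.91 and -5.57 on the ATRA+DEN and DEN arrays and well above background on neither DEN array, which bounds its fold at 1.75 or more. Per1 was at 2.11 and 2.19 on the G0s2 and control siRNA arrays, against 0.17 and 0.25 on the ATRA+DEN and DEN arrays, with 1.43 and 1.77 on the ATRA and vehicle arrays, so the DEN arrays were low and the siRNA arrays stood 0.33 above the highest array of slide 1. Per2 and Per3 had gaps of 1.18 and 1.23, Dbp 0.65, Wee1, a cell cycle kinase under clock control, 0.80, and Nr1d2 0.14. On the activating side, Arntl lay lower by a gap of -0.20 and Clock of -0.06, and Npas2 was set apart lower, at -4.52 and -5.92 on the siRNA arrays and -3.28 and -3.13 on the DEN arrays, but was well above background on neither siRNA array, which bounds its fold at 1.25 or more. Against all 4 arrays of slide 1, only Ciart of the list was set apart. Relative to vehicle, the median of the list was 0.12 and 0.24 on the G0s2 and control siRNA arrays, against -0.28 and -0.35 on the ATRA+DEN and DEN arrays. The hour at which each liver was taken is not given in the labels, and its part in these differences was not tested.

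The E-box through which Clock and Arntl act is shown for the clock genes Ciart (chr3:95882229-95882478, minus strand) and Per1 (chr11:69098699-69098948, plus strand), in capitals. Ciart has 3 matches to CACGTG, beginning 116, 58 and 44 bases before the start, and Per1 has 1 at 166 for the first of its starts. Usp2, Per3 and Npas2, clock genes also set apart, have no E-box match in these windows.
Ciart: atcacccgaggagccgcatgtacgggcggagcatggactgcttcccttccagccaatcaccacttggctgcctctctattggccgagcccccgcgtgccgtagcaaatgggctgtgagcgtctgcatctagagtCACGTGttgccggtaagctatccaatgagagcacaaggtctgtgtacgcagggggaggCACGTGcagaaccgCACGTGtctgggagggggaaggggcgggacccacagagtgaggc
Per1: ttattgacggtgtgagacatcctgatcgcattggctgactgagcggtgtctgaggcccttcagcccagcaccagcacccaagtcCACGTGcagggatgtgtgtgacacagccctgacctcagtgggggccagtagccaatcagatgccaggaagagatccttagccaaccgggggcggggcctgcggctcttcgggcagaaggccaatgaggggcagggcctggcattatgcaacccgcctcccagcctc
The E-box was found in 6.02% of all windows and 7.82% of those of the genes compared, and in 28% of the 25 windows of the clock list. In the windows of the genes set apart it was found in 7.08% (higher) and 5.17% (lower).

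Fatty acid synthesis genes leaned upwards on the siRNA arrays, and the ATRA+DEN array was the low one of the other side. Of 27 genes of fatty acid and triglyceride synthesis, 16 lay higher and 1 lower, against 29% and 19.9% of all genes, with a median difference of 0.75. Relative to vehicle, their median was -0.05 and 0.06 on the G0s2 and control siRNA arrays, against -1.08 and -0.20 on the ATRA+DEN and DEN arrays. Thrsp, a promoter of lipogenesis, was at 8.56 and 8.33 on the G0s2 and control siRNA arrays, against 4.90 and 6.88 on the ATRA+DEN and DEN arrays, with 7.13 and 8.27 on the ATRA and vehicle arrays. Lpin1, a phosphatidate phosphatase, was at 1.44 and 1.36 on the siRNA arrays and -0.70 and 0.15 on the DEN arrays, and Pnpla5, a lipase of the adiponutrin family, at -0.49 and 0.47 on the siRNA arrays and -5.65 and -1.81 on the DEN arrays. Pnpla5 and Pnpla3 were each well above background on 1 of the DEN arrays. Pnpla3 (adiponutrin), which remodels lipid droplet triglyceride, was at 2.11 and 3.36 on the G0s2 and control siRNA arrays, against -3.60 and 0.43 on the ATRA+DEN and DEN arrays, with 1.37 and 0.64 on the ATRA and vehicle arrays. Cholesterol synthesis genes had a median difference of 0.65, but 7 of 25 lay higher and none lower, which is close to the 29% of all genes. Relative to vehicle their median was -0.32 and 0.12 on the G0s2 and control siRNA arrays, against -1.20 and -0.25 on the ATRA+DEN and DEN arrays. Sqle, an early enzyme of the sterol branch, was at 2.92 and 4.90 on the G0s2 and control siRNA arrays, against -0.24 and 3.15 on the ATRA+DEN and DEN arrays, so the sides overlapped.

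Heat shock chaperones were higher without any being set apart. Of 17 heat shock chaperones, 14 lay higher and none lower, against 29% and 19.9% of all genes. None of the 17 was set apart, and their median difference was 0.83. Hspa8, the constitutive Hsp70, was at 9.72 and 9.69 on the G0s2 and control siRNA arrays, against 8.15 and 9.04 on the ATRA+DEN and DEN arrays. Hsph1, its exchange factor, was at 4.73 and 5.00 on the siRNA arrays and 3.00 and 4.05 on the DEN arrays. Of the 14, 13 lay above all 4 arrays of slide 1, where 18.4% of all genes did. Of 24 genes of the unfolded protein response in the endoplasmic reticulum, 14 lay higher and none lower, against 29% and 19.9% of all genes, with a median of 0.33. Of these 5 lay above all 4 arrays of slide 1, near the 18.4% of all genes, and relative to vehicle the median was 0.06 and -0.01 on the G0s2 and control siRNA arrays, against -0.49 and -0.18 on the ATRA+DEN and DEN arrays. The member set apart was Creld2, an endoplasmic reticulum stress protein, at 6.12 and 6.12 on the siRNA arrays and 4.46 and 4.98 on the DEN arrays.

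Cell cycle genes stood lowest on the DEN array. Of 24 compared, 15 lay higher and none lower, against 29% and 19.9% of all genes. The median difference of the 24 was 0.80, or 0.39 over the 19 well above background on all 4 arrays. Relative to vehicle, the median was 0.71 and 0.44 on the G0s2 and control siRNA arrays, against 0.48 and -0.44 on the ATRA+DEN and DEN arrays. Mki67, a protein of dividing cells, was at 0.57 and 0.61 on the G0s2 and control siRNA arrays, against -0.66 and -3.00 on the ATRA+DEN and DEN arrays and was the member set apart. Plk1, a kinase of mitosis, had a difference of 2.40 with a gap of 0.56, and the 2 DEN arrays differed from each other.

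Globin genes were high on vehicle and low on the DEN arrays. Hba-a1, an alpha globin, was at 4.52 and 4.10 on the G0s2 and control siRNA arrays, against 2.61 and 2.97 on the ATRA+DEN and DEN arrays, with 4.85 and 6.24 on the ATRA and vehicle arrays. The beta globin Hbb-bt was at 3.72 and 3.37 on the siRNA arrays and 1.70 and 2.20 on the DEN arrays, and Hba-a2 had a gap of 1.07. The near-identical globin genes may share RNA at their probes. Epb42, another red cell marker, was well above background on none of the 4 arrays. Of 14 markers of red cells and their precursors 7 lay higher and 1 lower, against 29% and 19.9% of all genes. Their summed level was 8.06 and 7.36 on the G0s2 and control siRNA arrays, against 6.76 and 6.79 on the ATRA+DEN and DEN arrays and 7.91 and 9.26 on the ATRA and vehicle arrays. The siRNA arrays therefore lay between the DEN arrays and vehicle, and the blood left in each liver was not measured.

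The genes with the largest gaps downwards were fewer and closer to the other arrays of slide 1. Of the 15, 14 lay below all 4 arrays of slide 1, Egr1 being the exception, but only Tubb2b, a beta tubulin, was set apart from all 4. Their limma adjusted p ran between 0.138 and 0.212. Elovl3 (probe at chr19:46209762-46209821), an elongase of very long fatty acids that male livers express more, was at 1.96 and -0.42 on the G0s2 and control siRNA arrays, against 4.68 and 4.23 on the ATRA+DEN and DEN arrays, with 2.60 and 4.39 on the ATRA and vehicle arrays. The 2 siRNA arrays differed by 2.38 (G0s2 siRNA minus control siRNA), the control siRNA array being the lower. Ndrg1, a gene induced by stress and low oxygen, was at 0.31 and 0.56 on the siRNA arrays and 2.24 and 2.82 on the DEN arrays, with 2.40 and 1.32 on the ATRA and vehicle arrays.

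Neat1 and Malat1, neighbouring long noncoding RNAs of the nucleus, were both lower. Neat1 (probe at chr19:5842564-5842623), the scaffold of paraspeckles, was at 3.40 and 3.93 on the G0s2 and control siRNA arrays, against 5.56 and 5.80 on the ATRA+DEN and DEN arrays, with 4.41 and 5.15 on the ATRA and vehicle arrays, a difference of -2.01 (SE 0.24). All 6 of its probes above background lay lower. Malat1 (probe at chr19:5795713-5795772), a component of nuclear speckles, was at -1.17 and -0.67 on the G0s2 and control siRNA arrays, against 0.75 and 0.66 on the ATRA+DEN and DEN arrays, with -0.21 and 0.10 on the ATRA and vehicle arrays. On the same chromosome 15 stretch, Sco2 (probe at chr15:89202216-89202275), a copper chaperone of cytochrome oxidase, was at 5.17 and 4.73 on the G0s2 and control siRNA arrays, against 6.52 and 6.42 on the ATRA+DEN and DEN arrays, and Tymp (probe at chr15:89202362-89202421), thymidine phosphorylase, was at 4.44 and 4.01 on the G0s2 and control siRNA arrays, against 5.81 and 5.75 on the ATRA+DEN and DEN arrays. These probes lie side by side, so the pair may not be independent. Odf3b, which lies next to them, was just short of set apart with a gap of -0.99.

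Egr1, an immediate early transcription factor, was at -1.72 and -1.09 on the G0s2 and control siRNA arrays, against 0.15 and 1.12 on the ATRA+DEN and DEN arrays, with -1.65 and -1.91 on the ATRA and vehicle arrays, so the siRNA arrays overlapped the arrays without DEN. Sox9, a transcription factor of bile duct and progenitor cells, was at -2.33 and -2.31 on the siRNA arrays and -0.97 and -0.87 on the DEN arrays, and Krt23, a keratin of injured liver, at -2.16 and -2.45 on the siRNA arrays and -0.84 and -0.83 on the DEN arrays. Of 8 markers of cholangiocytes and progenitors Sox9 was the one that lay outside, and Epcam and Dlk1 were well above background on none of the 4 arrays. Spon2, a secreted matrix protein, Ceacam2, an adhesion molecule, Bglap3, a relative of osteocalcin, Miip, an inhibitor of cell migration, and Spata22, a meiosis gene, had gaps of -1.34, -1.46, -1.36, -1.29 and -1.23. The mean over the 3 probes of Bglap3 overlapped between the sides.

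Some genes were measured on 1 side alone. Gdpd3 (probe at chr7:133914520-133914693), a lysophospholipase, was at -3.77 and -3.49 on the G0s2 and control siRNA arrays, against 1.46 and 1.18 on the ATRA+DEN and DEN arrays, and was at least 26.7-fold lower on the siRNA arrays, with an adjusted p of 0.0536. Its level on the remaining arrays of slide 1 was -0.07 and -5.11 on the ATRA and vehicle arrays, so the low siRNA level lay within the range of that slide. Igsf23, a cell adhesion protein of the immunoglobulin family, was at -5.31 and -5.84 on the G0s2 and control siRNA arrays, against -0.85 and 0.09 on the ATRA+DEN and DEN arrays, with -5.56 and 0.33 on the ATRA and vehicle arrays, and was at least 8.83-fold lower. It thus differed as much between the ATRA and vehicle arrays as between the sides. Inhbb, a subunit of activin B, was at least 5.38-fold lower, Id4, an inhibitor of helix-loop-helix factors, 7.55-fold, Raet1c, a ligand of the NKG2D receptor, 4.89-fold, and Gpr12, an orphan receptor, 4.13-fold.

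In the other direction, Slc2a4 (GLUT4), a glucose transporter, was at least 5.07-fold higher. Fermt3, an integrin activator of blood cells, was 4.67-fold higher, which is its measured fold and not a bound. Both were well above background on neither DEN array. The control siRNA array alone was high for Cyp2b13, a cytochrome P450 that female mouse livers express more than male ones, with -2.36 and 4.38 on the G0s2 and control siRNA arrays, against -2.02 and -1.07 on the ATRA+DEN and DEN arrays, with -2.48 and -2.25 on the ATRA and vehicle arrays. Cyp2a4, another such cytochrome P450, was at 6.80 and 9.48 on the G0s2 and control siRNA arrays, against 3.81 and 6.19 on the ATRA+DEN and DEN arrays, with 7.58 and 8.60 on the ATRA and vehicle arrays, so the DEN arrays were its lowest. Slc22a26, an organic anion transporter, was at -3.23 and 2.64 on the G0s2 and control siRNA arrays, against -4.04 and -3.54 on the ATRA+DEN and DEN arrays, and was well above background on neither DEN array. Over the 18 female-biased genes compared, the median difference was 0.85 and was -0.27 without the control siRNA array. Male-biased genes had a median of -0.24, with 3 of 23 higher and 6 lower, against 29% and 19.9% of all genes. Elovl3 was the member set apart.

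G0s2, the target of one of the siRNAs and an inhibitor of the lipase Pnpla2, overlapped between the sides. G0s2 was at 1.99 and 3.84 on the G0s2 and control siRNA arrays, against 0.44 and 3.33 on the ATRA+DEN and DEN arrays, with 3.12 and 4.28 on the ATRA and vehicle arrays. Its level on the G0s2 siRNA array was below that on the control siRNA array, and both were above the ATRA+DEN array. Cyp26a1 was at 0.75 and 0.43 on the G0s2 and control siRNA arrays, against 6.40 and 1.87 on the ATRA+DEN and DEN arrays, with 6.63 and 0.42 on the ATRA and vehicle arrays, so it was high on both arrays with ATRA, and its gap of -1.12 was to the DEN array. Cyp4a14, a fatty acid hydroxylase, was low, at -4.88 and -0.58 on the G0s2 and control siRNA arrays, against 1.93 and 3.56 on the ATRA+DEN and DEN arrays, with 2.08 and -1.18 on the ATRA and vehicle arrays.

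Sensors of foreign RNA and the RNA interference machinery had 6 of 18 members higher and 4 lower, near the 29% and 19.9% of all genes, none set apart, with a median of 0.10. Ago4, an Argonaute protein, was at -0.52 and -0.61 on the G0s2 and control siRNA arrays, against 0.55 and 0.28 on the ATRA+DEN and DEN arrays, a difference of -0.98 (SE 0.18). Bile acid, retinoid, xenobiotic, gluconeogenesis, growth hormone, stellate cell and fatty acid oxidation lists had medians between -0.13 and 0.16. Urea cycle genes, NRF2 and phase II genes, metallothioneins and other metal genes, and complement and coagulation genes had medians between 0.18 and 0.22. In that order 9 of 18, 10 of 23, 6 of 15 and 16 of 31 lay higher, against 29% of all genes. Gstm2, a glutathione transferase from these lists, was set apart at 6.78 and 6.64 on the siRNA arrays and 4.88 and 5.57 on the DEN arrays. None of the 6 pancreas, muscle and fat markers compared lay outside, and 12 of the 20 on the array were well above background on none of the 4 arrays, the pancreatic proteases and the fat marker Adipoq among them. Of 17 immediate early genes 3 lay higher and 3 lower, against 29% and 19.9% of all genes. Among those higher was Dusp1, a MAP kinase phosphatase, at 1.43 and 1.61 on the siRNA arrays and 0.20 and 0.30 on the DEN arrays. Over all 34 lists, 45 genes were set apart higher and 6 lower, out of 654 listed genes compared, where 1.47% and 0.549% of all genes were.

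The arrays without DEN place these differences. Against the ATRA and vehicle arrays, the siRNA arrays had 379 genes set apart higher (1.87%) and 67 lower (0.331%). The ATRA+DEN and DEN arrays had 73 set apart higher (0.361%) and 25 lower (0.124%) than the same ATRA and vehicle arrays. These comparisons share arrays and the siRNA arrays alone are on another slide. Against all 4 arrays of slide 1 together, 188 genes (0.929%) were set apart higher on the siRNA arrays and 25 (0.124%) lower.

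At day 7 most genes set apart higher at day 2 no longer were. The day-7 comparison used other arrays, the 2 siRNA arrays against those titled ATRA+DEN and DEN. Of the 297 genes set apart higher at day 2, 63 (21.2%) lay higher at day 7, where 29.6% of all genes did, and 9 (3.03%) were set apart, against 1.13% of all genes. Of the 111 set apart lower, 51 (45.9%) lay lower at day 7, where 26.1% of all genes did, and 16 were set apart, or 14.4% against 2.23%. Titles and treatment characteristics conflict for 3 of the day-7 arrays. By the characteristic the DEN pair is made of the arrays titled ATRA+DEN and ATRA. That pair shares a slide with the day-7 siRNA arrays, and against it the shares were 24.2% of the higher genes (27.2% of all) and 37.8% of the lower genes (27.5% of all).

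Of the 25 genes set apart in the same direction on both days, 13 have a gene name and are given for that reason, after their values were seen. They were Hba-a1, Hba-a2, Hbb-bt, Lpin1, Ciart, Slc2a4, Klra8, P2ry12 and Clec4b1 (higher) and Neat1, Snx29, Gpr12 and Six3 (lower). Neat1 at day 7 was at 4.45 and 3.84 on the G0s2 and control siRNA arrays, against 6.41 and 6.88 on the arrays titled ATRA+DEN and DEN. Hba-a1 was at 6.88 and 6.78 on the G0s2 and control siRNA arrays, against 2.91 and 2.71 on the arrays titled ATRA+DEN and DEN. Lpin1 was at 4.26 and 4.00 on the G0s2 and control siRNA arrays, against 1.72 and 1.28 on the arrays titled ATRA+DEN and DEN. Klra8, a receptor of NK cells, was well above background on 6 of the 12 arrays, and was the gene that passed limma (adjusted p = 0.0142) when the 8 arrays of both days were fitted with day as a block. Cxcl9, high at day 2, was at -0.14 and 0.15 on the G0s2 and control siRNA arrays at day 7, against 1.11 and 0.54 on the arrays titled ATRA+DEN and DEN. Saa3 at day 7 was at 2.81 and 2.14 on the G0s2 and control siRNA arrays, against 1.95 and 1.66 on the arrays titled ATRA+DEN and DEN. Of the 297 genes set apart higher at day 2, 4 (1.35%) were set apart lower at day 7, where 2.23% of all genes were. The 2 with a gene name were Pnpla3 and Tyro3, a receptor tyrosine kinase. Against the pair on the slide of the day-7 siRNA arrays neither was set apart. Tyro3 overlapped and Pnpla3 had a gap of -0.87.

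The day-7 medians of some lists had the other sign. For interferon-induced genes the median difference at day 7 was -0.24, for fatty acid and triglyceride synthesis -0.61 and for cholesterol synthesis -1.55, against 0.03 over all genes. At day 7, 22 of 25 cholesterol synthesis genes lay lower and none higher, where 26.1% and 29.6% of all genes did. Kupffer cell markers had a day-7 median of 0.16. Of the 18, 5 lay higher at day 7, near the 29.6% of all genes, and 3 lower. Markers of red cells kept their sign, with a day-7 median of 1.68. The day-2 difference was tested against the day-7 difference with a side by day term in limma over the 8 arrays, an analysis added after the day-7 values were seen. No gene (0%) of the 20236 passed, with a lowest adjusted p of 0.0741 and 3083 genes at an unadjusted p under 0.05, so a change between the days was not shown for any single gene. With the day-7 arrays on the slide of the siRNA arrays none passed either, with a lowest adjusted p of 0.0771 and 3280 genes at an unadjusted p under 0.05. For Cxcl9 the difference at day 2 exceeded that at day 7 by 4.43 (SE 0.42, adjusted p = 0.0741), and for Pnpla3 by 7.29 (SE 1.80, adjusted p = 0.171). For the lists it was not tested.

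**Figure D4:**
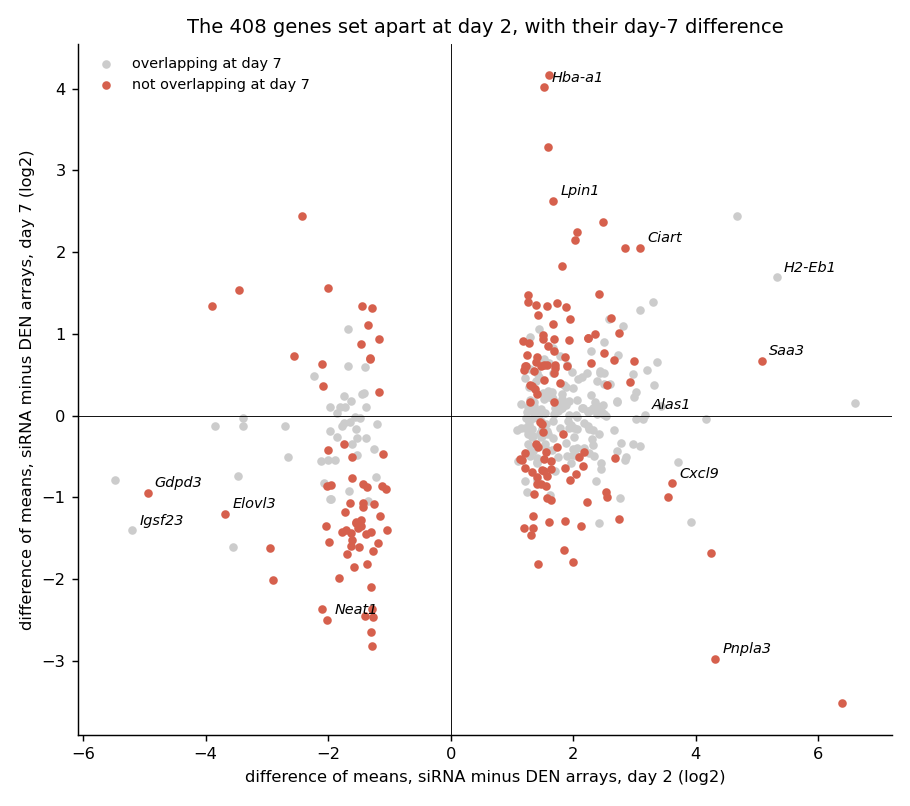
Difference of the means, siRNA minus DEN arrays (log2), at day 2 (x axis) and day 7 (y axis, arrays by title) for the 408 genes set apart at day 2. Red points did not overlap at day 7. The points at the right, set apart higher at day 2, spread on both sides of 0 at day 7, and Pnpla3 lies at 4.32 and -2.97.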

How the data were processed

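Each liver RNA was labelled with Cy3 and put on a 1-colour Agilent array. The deposited array files hold processed spot intensities, background-subtracted and detrended by Agilent Feature Extraction (version 10.7.1.1 and build mm9 per the file headers, 9.5.1.1 per the submitters' processing notes). The deposited series table holds linear intensities normalized by the authors, and served as an alternative. The file headers and labels do not state how that table was normalized. Control spots were left out, spots of a probe were averaged, and log2 values were taken minus each array's 75th percentile. A gene was its probe with the highest mean level on the 4 arrays, kept where well above background on at least 2. The 4 arrays measured 47.2% to 50.7% of their probes well above background, none was saturated, and their number limits the precision. Gaps between arrays were counted, and limma 3.58.1 (R 4.3.3) was fitted over all genes with Benjamini-Hochberg adjustment. It takes the 2 treatments of a side as 2 samples of that side, so its p-values measure the spread between these arrays. A side by day term over the 8 arrays of both days was added after the data were seen. Both steps were tested on simulated data. Of 55681 probes, 27235 were named by accession, 3581 by symbol, 565 by synonym, 41 by symbol in other case and 24259 by the array file.

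Named genes were G0s2, Cyp26a1, Cdkn1a and Mdm2, the 15 largest gaps in each direction among genes well above background on all 4 arrays, and the 6 largest bounds each way among genes dim on 1 whole side. For each of 34 lists, up to 5 members set apart in each direction were added, or the 2 with the largest difference. Some genes that this rule covers are not reported here. Other genes named were chosen after their values were seen. The comparison, the members and the lists were chosen with earlier results of these data known. Upstream sequences are RefSeq's (GRCm38.p6), matched by symbol for 80 of the 110 named genes.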

Additional observations from a re-analysis of the deposited data

Results flagged for a closer look

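Some results had opposite directions at day 2 and day 7. For the lists the difference between the days was not tested. Pnpla3 had a gap of 1.68 at day 2, with both siRNA arrays above both DEN arrays, and of -1.97 at day 7, with both siRNA arrays below the arrays titled ATRA+DEN and DEN. Its day-7 level was -4.40 and -4.09 on the G0s2 and control siRNA arrays, against -0.42 and -2.12 on the arrays titled ATRA+DEN and DEN. The array titled ATRA was at -3.21. Against the arrays titled ATRA+DEN and ATRA, the DEN pair by characteristic, the Pnpla3 gap at day 7 was -0.87 and so under the limit of 1. The day-2 difference exceeded the day-7 difference by 7.29 (SE 1.80), which did not pass a side by day term in limma (adjusted p = 0.171). Among fatty acid and triglyceride synthesis genes, 16 of 27 lay higher at day 2 and 14 lay lower at day 7. Among heat shock chaperones, 14 of 17 lay higher at day 2 and 11 lay lower at day 7. Of all genes, 29% lay higher at day 2 and 26.1% lower at day 7. The siRNA arrays are on a slide of their own at day 2 and share a slide with the array titled ATRA+DEN at day 7.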

How the results depend on the processing

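The day-2 comparison rests on 2 arrays a side, on different slides, and faint probes limit it. No paired analysis was possible because each group is 1 array with no replicate number, and no slide holds both sides. Normexp background correction raised the count passing limma to 14 and lowered the genes set apart to 88 higher and 16 lower, those set apart from all 4 arrays of slide 1 to 60 and 3, and the list members set apart to 28 and 2. Passing counts were 1 with genes well above background on all 4 arrays, 3 with the mean over a gene's probes, and 1 with the 8 arrays of both days and day as a block, also with slide as a random block. With no filter 457 genes were set apart higher and 223 lower, 41 were lower than all 4 arrays of slide 1, and 30.0% of the lower genes kept their direction at day 7. Requiring all 4 arrays above background gave 191 and 58, and against all 4 arrays of slide 1 119 and 11. Any gap gave 5862 and 4026 genes, and a gap of 2 gave 45 and 10. Leaving out each array in turn leaves a side with 1 array, assumed to vary like the other. It gave 0 genes passing limma throughout, 514 to 660 set apart higher and 258 to 470 lower, 226 to 382 and 32 to 177 against all 4 arrays of slide 1, 57 to 103 and 11 to 18 list members, and 18.8% to 35.8% and 30.9% to 58.9% with the same direction at day 7. A side of 1 array makes a gap easier to reach by construction. The median of female-biased genes turned to -0.272 without the control siRNA array and was 1.782 without the G0s2 siRNA array, and no other list median and no gap of a named gene turned. Of the 80 named genes set apart, 44 were so under all alternatives, and 32 losses came with normexp correction, among them Ciart, Per2, Per3, Malat1, Sox9, Krt23 and C1qb. Quantile normalization, centring on the median and the authors' series table kept the counts within 1.5 times.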
